A study of Mus musculus with 12 samples.

Results

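The comparison described here sets Sox1-GFP-positive cells sorted at day 6 of astrocyte reprogramming, called day 6 cells, against cultured neural stem cells. The day 6 cells are the 3 arrays whose labels name intermediate-state cells, and the neural stem cells (NSCs) are the 2 arrays labelled so. Thus 5 of the 12 mouse arrays of the series enter the contrast. The series as a whole asks whether astrocytes pass through a state resembling neural stem cells on the way to induced pluripotent stem cells (iPSCs). The contrast shows which neural stem cell genes the sorted cells held at the level of cultured NSCs and which they did not. All 5 arrays come from cells that carry green fluorescent protein (GFP) in place of 1 copy of Sox1 (Sox1+/-), so both groups lack a copy of that gene.

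Day 6 cells began as cortical astrocytes of mice at postnatal day 3, grown with 10% serum and sorted to be free of Sox1-GFP. They were infected with retroviruses carrying Oct4 (Pou5f1), Klf4, Sox2 and c-Myc (Myc), moved to embryonic stem cell medium with 15% serum and 1000 U/ml of leukaemia inhibitory factor (LIF), and sorted for Sox1-GFP at day 6. NSCs were taken from Sox1-GFP telencephalon at embryonic day 12.5 to 14.5 and grew without serum in N2 medium with 20 ng/ml basic fibroblast growth factor (bFGF) and 20 ng/ml epidermal growth factor (EGF). The labels do not say that they were sorted. Unsorted and GFP-negative cells of day 6 were not analysed here, so what the sort selected and what reprogramming changed cannot be told apart. Medium, serum, delivered factors, age of origin and time in culture differ between the groups as well and cannot be told apart from cell state. The series also holds 3 arrays of the starting astrocytes and 2 of iPSCs derived from Sox1-GFP astrocytes. Another 2 hold iPSCs derived from embryonic fibroblasts (MEFs) with a Nanog-GFP-IRES-Puro reporter. Both iPSC groups grew on MEF feeder cells with 1500 U/ml of LIF.

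Neural stem cells of the embryonic telencephalon are the radial glia, which line the ventricle, divide, and give rise to neurons first and to astrocytes and oligodendrocytes later. Their identity rests on transcription factors of the Sox, Pax, Pou and Olig families, on Notch signalling that holds back differentiation, and, in culture, on FGF and EGF. Astrocytes descend from the same cells and keep many radial glial genes, so a gene of this programme may be active before reprogramming begins.

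Each level given below is the log2 of the intensity of a gene's probe set on the array. Each difference is the mean of the day 6 arrays minus the mean of the NSC arrays on that log2 scale. The value after ± is the standard error (SE) of limma for a difference and the standard deviation (SD) over arrays for a level. A gene is called higher or lower where the limma p adjusted by Benjamini-Hochberg over all genes is under 0.05 and the difference is at least 1, a 2-fold change. A gene is called shared, within 2-fold, where the 95% confidence interval of the difference lies wholly between -1 and 1. Genes meeting neither rule are left unresolved. SE, interval and p rest on a gene's variance pooled over all arrays of the series and on limma's prior, not on the compared arrays alone. Where the NSC arrays lie far apart, the SE can understate their spread, so calls of such genes, shared ones included, are less certain. The labels do not say whether replicates came from separate animals or cultures. The p-values therefore reflect only how far arrays spread within the groups of the series, which could be technical. In RNA from many cells, fewer cells of a type and less RNA per cell cannot be told apart.

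Of 19938 genes, 586 were higher in day 6 cells (2.94%), 1185 were lower (5.94%), 17244 were within 2-fold (86.5%) and 923 were unresolved. Across genes, Pearson's r was 0.995 to 0.996 between day 6 arrays, 0.992 between the NSC arrays, and 0.926 to 0.935 between an array of one group and an array of the other. For 7386 genes the neural stem cell level averaged at least 7.67, which is 1 above the median of all values, and these are called active in NSCs. Among them 974 were lower in day 6 cells (13.2%), 146 were higher (1.98%) and 5779 were within 2-fold (78.2%). Of the 974, 695 averaged under 7.67 in day 6 cells. Every list count below is to be set against these shares over all genes and over genes active in NSCs. Because active genes are chosen by a high NSC level, that limit favours lower calls over higher ones. Counts among active genes are therefore a description.

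**Figure D1:**
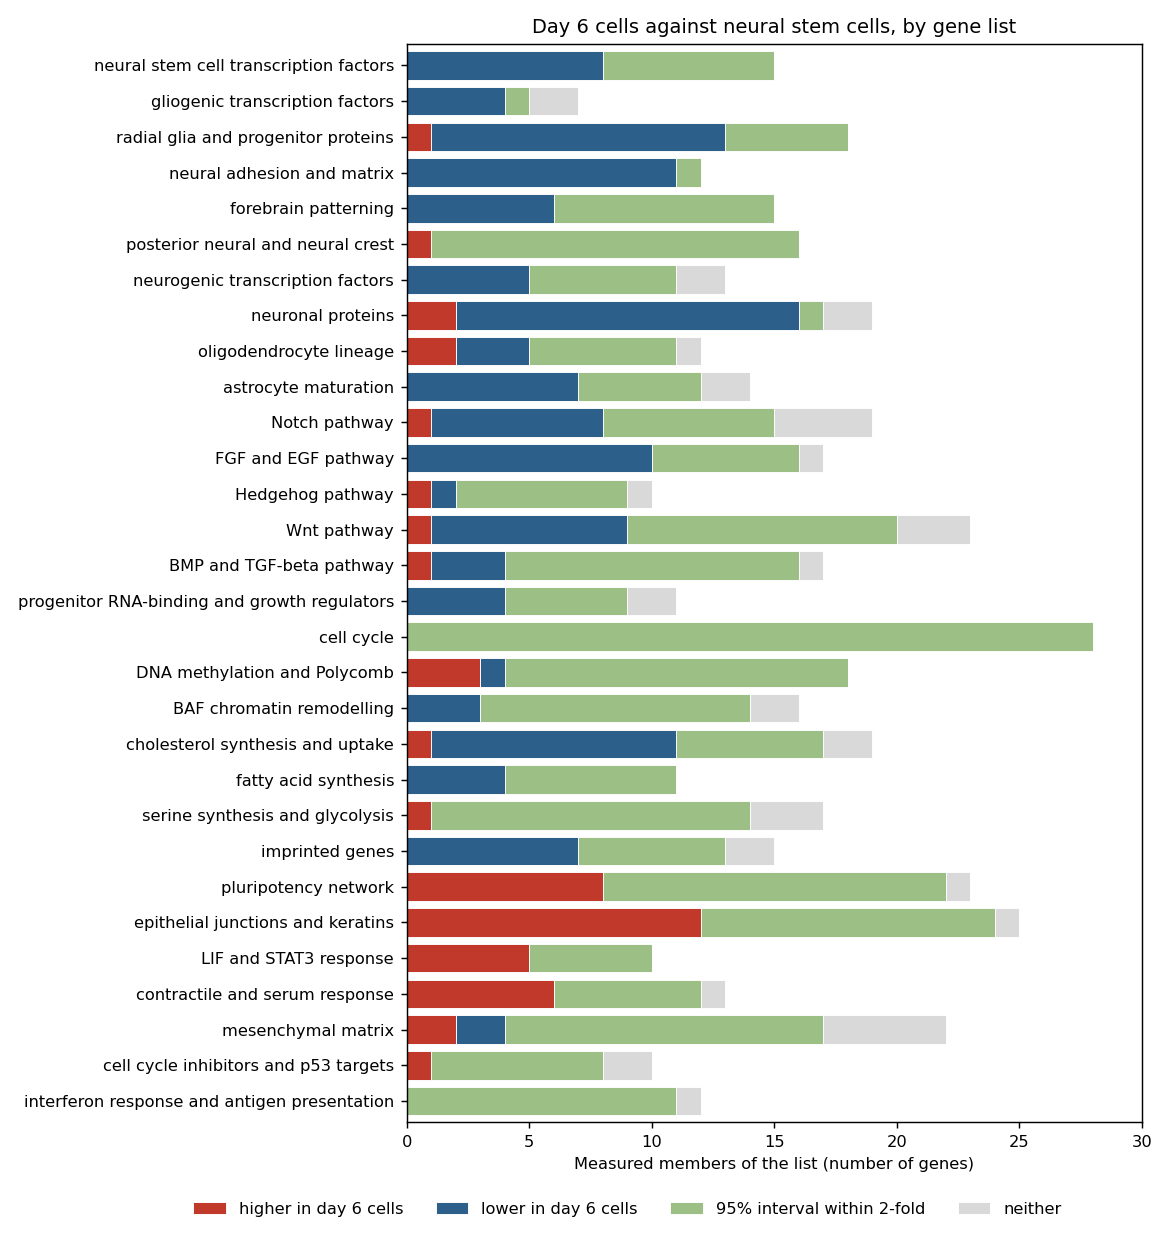
Number of measured genes in each of 30 gene lists, split by the comparison of day 6 cells (3 arrays) with neural stem cells (2 arrays): higher in day 6 cells (red), lower in day 6 cells (blue), 95% interval within 2-fold (green) and neither (grey). All 28 cell cycle genes are green, 11 of 12 neural adhesion and matrix genes are blue, and the red bars are longest for the epithelial list (12 of 25) and the pluripotency list (8 of 23).

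The transcription factors of NSCs divided into a group that day 6 cells shared and a group that they held at a far lower level. Of 15 measured, 8 were lower, 7 were within 2-fold and none was higher, with a median difference of -1.58 against 0.07 over all genes. All 15 were active in NSCs, where 13.2% of genes were lower and 78.2% within 2-fold. The 7 include Sox1, whose reporter was used for the sort, so its place among them is no finding. Each of these 15 calls was the same under every alternative processing of the values and with any 1 of the 5 arrays left out. The largest differences were in the basic helix-loop-helix factors of the ventral progenitor zone and the oligodendrocyte lineage. Olig2 had levels of 6.27, 6.35 and 6.45 in day 6 cells, against 12.3 and 12.12 in NSCs, a difference of -5.85 ± 0.17, adjusted p = 7.7e-10. Its neighbour Olig1 had 6.48, 6.68 and 6.49 in day 6 cells, against 11.59 and 11.56 in NSCs, a difference of -5.02 ± 0.18, adjusted p = 3.9e-09. Both NSC arrays stood far above all 3 day 6 arrays for these genes, and the astrocytes, from which the day 6 cells were made, averaged 10.65 ± 0.33 for Olig2 and 10.61 ± 0.32 for Olig1.

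Rfx4, a factor of the neural tube that controls cilia genes and dorsal patterning, had levels of 6.61, 6.59 and 7.05 in day 6 cells, against 11.13 and 10.61 in NSCs (-4.12 ± 0.17, adjusted p = 1e-08). Nr2e1 (Tlx), an orphan receptor that keeps adult neural stem cells dividing, had 6.22, 6.32 and 6.3 in day 6 cells, against 8.47 and 8.66 in NSCs (-2.28 ± 0.11, adjusted p = 3.7e-08). Neither gene's arrays overlapped between the groups, and both averaged under 7.67 in day 6 cells. Pou3f3, Pou3f4 and Sall3 were lower by the same rule, with differences of -2.05 ± 0.1, -1.7 ± 0.12 and -1.58 ± 0.13.

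The shared group held Sox1, Sox3, Sox21, Pax6, Sall1, Pou3f1 and Pou3f2. Within this group, Pou3f1 and Pou3f2 averaged 7.6 and 7.52 in day 6 cells, under 7.67. Another probe set of Pou3f2 differed by -0.8. Sox3, Sall1 and Pou3f1 averaged 7.79, 8.5 and 7.6 in day 6 cells. Their means were 7.85, 9.77 and 8.11 in iPSCs from astrocytes, and 7.81, 8.94 and 8.74 in iPSCs from MEFs. The levels of these genes therefore did not set day 6 cells above pluripotent cells. Sox21, which in chick promotes the differentiation of progenitors, had levels of 8.96, 8.7 and 8.68 in day 6 cells, against 8.99 and 8.72 in NSCs, and its interval ran from -0.33 to 0.18. Pax6, the master factor of cortical radial glia and eye, had 8.51, 8.45 and 8.57 in day 6 cells, against 7.98 and 7.94 in NSCs (0.56 ± 0.11, adjusted p = 0.00143). It was within 2-fold while every day 6 array lay above both NSC arrays, and it averaged 8.86 ± 0.17 in astrocytes, 5.61 in iPSCs from astrocytes and 5.98 in iPSCs from MEFs. Sall1, a zinc finger repressor, had 8.49, 8.54 and 8.47 in day 6 cells, against 9.09 and 8.75 in NSCs, with an interval from -0.63 to -0.21.

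Sox1 is the gene whose reporter was used for the sort, so its level is a description of the sorted cells and no finding. Its probe set read 8.4, 8.53 and 8.27 in day 6 cells, against 8.2 and 8.32 in NSCs, with an interval from -0.07 to 0.35. The same probe set read 8.13 ± 0.14 in the GFP-negative astrocytes, 8.0 in iPSCs from astrocytes and 7.98 in iPSCs from MEFs, so it separated no group of the series by as much as 1. Sox3, the X-linked relative of Sox1, had 7.66, 7.89 and 7.83 in day 6 cells, against 8.24 and 8.23 in NSCs (-0.44 ± 0.1, adjusted p = 0.00414).

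Of the delivered factors, Sox2 is itself a gene of NSCs and keeps them undifferentiated. Its level was 8.76, 8.56 and 8.75 in day 6 cells, against 11.05 and 10.95 in NSCs, a difference of -2.31 ± 0.08, adjusted p = 3.1e-09 that corresponds to 4.95-fold less in day 6 cells. Astrocytes averaged 11.19 ± 0.08 and iPSCs from astrocytes 10.76, so the day 6 cells held the lowest level among the 5 groups. Myc read 7.35, 7.42 and 7.14 in day 6 cells, against 10.32 and 10.04 in NSCs (-2.87 ± 0.15, adjusted p = 7e-08), again the lowest of the 5 groups. Pou5f1 was higher, at 7.4, 7.41 and 7.65 in day 6 cells, against 5.54 and 5.4 in NSCs (2.02 ± 0.17, adjusted p = 3.5e-06), and Klf4 was unresolved at 7.43, 7.29 and 7.29 in day 6 cells, against 6.53 and 6.62 in NSCs (0.76 ± 0.15, adjusted p = 0.00221). Whether these probe sets detect transcripts of the retroviruses was not tested.

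**Figure D2:**
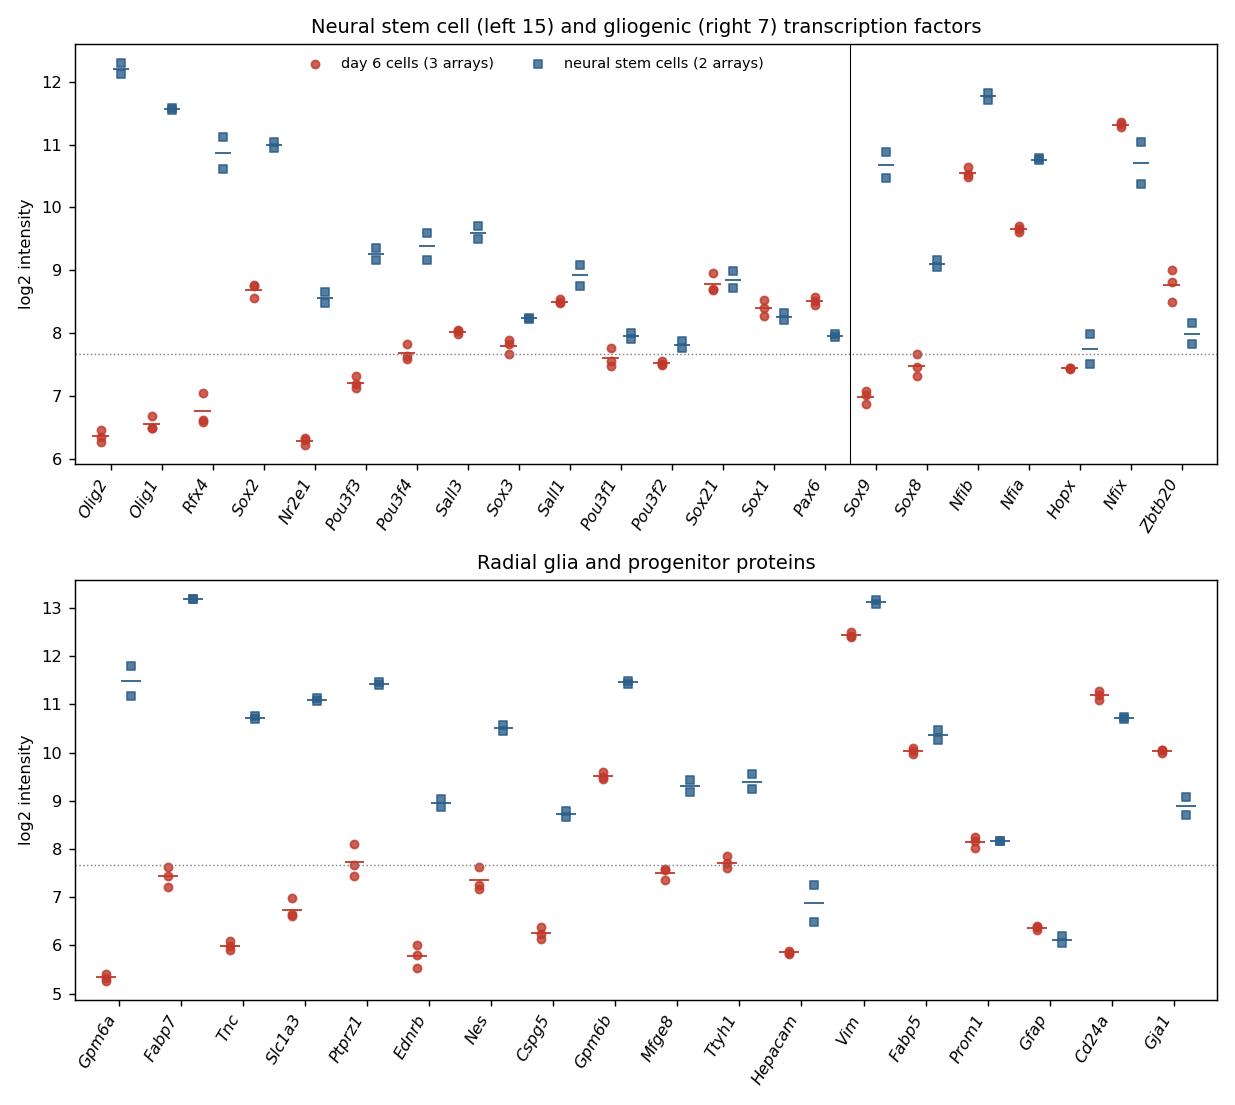
Log2 intensity of each measured neural stem cell and gliogenic transcription factor (upper panel) and each radial glia and progenitor protein (lower panel) in day 6 cells (red circles, 3 arrays) and neural stem cells (blue squares, 2 arrays), with short bars at the group means and a dotted line at 7.67, 1 above the median of all values. Olig2, Fabp7 and Gpm6a lie near or below the dotted line in day 6 cells and above 11 in NSCs, while Sox21, Pax6, Vim, Prom1 and Cd24a lie above it in both.

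The gliogenic factors, which open the astrocyte and oligodendrocyte programmes in late radial glia, were lower in 4 of 7 cases, with a median of -1.11. All 7 were active in NSCs, where 13.2% of genes were lower. Sox9, needed for the start of gliogenesis and for stem cell formation, had 6.87, 7.07 and 7.01 in day 6 cells, against 10.47 and 10.89 in NSCs (-3.7 ± 0.13, adjusted p = 3.2e-09), and its astrocyte mean was 11.37 ± 0.18. Sox8, its close relative, had 7.31, 7.46 and 7.67 in day 6 cells, against 9.16 and 9.05 in NSCs (-1.62 ± 0.11, adjusted p = 6.2e-07). The nuclear factor I genes Nfia and Nfib were lower by less, with differences of -1.11 ± 0.08 and -1.22 ± 0.14, and stayed above 9 on every day 6 array. Hopx, a marker of quiescent adult neural stem cells, was within 2-fold (-0.31 ± 0.13). Nfix and Zbtb20 were unresolved, with differences of 0.61 ± 0.21 and 0.78 ± 0.16.

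Radial glial and progenitor proteins were lower in 12 of 18 cases, higher in 1 and within 2-fold in 5, with a median of -1.88. The shares over all genes were 5.94% lower, 2.94% higher and 86.5% within 2-fold. Gpm6a, a neuronal and glial membrane glycoprotein, showed the largest decrease of all genes with arrays that did not overlap. Its levels were 5.33, 5.27 and 5.41 in day 6 cells, against 11.17 and 11.79 in NSCs, a difference of -6.15 ± 0.14, adjusted p = 2.5e-10. Fabp7 (brain lipid binding protein), the fatty acid carrier by which radial glia are recognised, had 7.45, 7.21 and 7.62 in day 6 cells, against 13.19 and 13.19 in NSCs (-5.76 ± 0.14, adjusted p = 3.5e-10). Slc1a3 (GLAST), the glutamate transporter of radial glia and astrocytes, had 6.65, 6.6 and 6.98 in day 6 cells, against 11.07 and 11.14 in NSCs (-4.36 ± 0.12, adjusted p = 6.6e-10). These 3 genes were abundant in the starting astrocytes as well, which averaged 11.73 ± 0.07 for Gpm6a, 13.11 ± 0.03 for Fabp7 and 12.08 ± 0.03 for Slc1a3. In iPSCs from astrocytes their means were 5.54, 6.5 and 7.87.

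The extracellular molecule tenascin C (Tnc), part of the stem cell niche, had 5.99, 6.09 and 5.9 in day 6 cells, against 10.76 and 10.69 in NSCs (-4.73 ± 0.08, adjusted p = 1.3e-10). Its receptor-type phosphatase Ptprz1 had 7.66, 7.45 and 8.1 in day 6 cells, against 11.4 and 11.47 in NSCs (-3.7 ± 0.16, adjusted p = 1.6e-08), with day 6 levels spread more widely than those of Tnc. Nestin (Nes), the intermediate filament that gives neural stem cells their usual stain, was among the lower genes, at 7.63, 7.16 and 7.25 in day 6 cells, against 10.44 and 10.57 in NSCs (-3.16 ± 0.16, adjusted p = 5.6e-08). It averaged 10.67 ± 0.24 in astrocytes and 7.53 and 7.95 in the iPSC groups.

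Other progenitor proteins were shared. Vimentin (Vim), the intermediate filament partner of nestin, had 12.43, 12.39 and 12.5 in day 6 cells, against 13.16 and 13.08 in NSCs (-0.68 ± 0.1, adjusted p = 0.00021), a decrease of under 2-fold. Prominin 1 (Prom1, CD133), a protein of the apical membrane used to sort neural stem cells, had 8.03, 8.17 and 8.24 in day 6 cells, against 8.17 and 8.17 in NSCs and an interval from -0.25 to 0.2. The sialoglycoprotein Cd24a had 11.28, 11.1 and 11.2 in day 6 cells, against 10.7 and 10.73 in NSCs, with an interval from 0.24 to 0.72. Fabp5, the epidermal fatty acid binding protein that is also found in progenitors, had 10.1, 9.97 and 10.03 in day 6 cells, against 10.46 and 10.26 in NSCs and averaged 8.89 ± 0.14 in astrocytes. Gfap, the filament of mature astrocytes, was within 2-fold at a low level, 6.39, 6.41 and 6.32 in day 6 cells, against 6.05 and 6.2 in NSCs, against 12.32 ± 0.29 in the astrocytes of the series. The gap junction protein Gja1 was the only member called higher, at 10.0, 10.05 and 10.06 in day 6 cells, against 9.07 and 8.7 in NSCs (1.15 ± 0.14, adjusted p = 6.1e-05), and its difference was 0.96 without NSC replicate 2, under the limit of 1.

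Neural adhesion molecules and brain matrix proteins were the list with the highest share of lower genes among the 30, 11 of 12. The share over all genes was 5.94%. Their median was -2.38, and all 10 members active in NSCs were lower, against 13.2% of all genes active in NSCs. Neurocan (Ncan), a chondroitin sulphate proteoglycan of the brain matrix, had 6.99, 7.13 and 7.03 in day 6 cells, against 11.32 and 11.56 in NSCs (-4.38 ± 0.08, adjusted p = 1.3e-10). The L1-family adhesion molecule Chl1 had 5.14, 5.24 and 5.25 in day 6 cells, against 8.78 and 9.77 in NSCs (-4.07 ± 0.28, adjusted p = 6e-07). Astrotactin (Astn1), which serves neurons migrating on glial fibres, had 6.56, 6.92 and 6.56 in day 6 cells, against 9.69 and 10.32 in NSCs (-3.32 ± 0.17, adjusted p = 4.4e-08). Contactin 1 (Cntn1) and brevican (Bcan) differed by -3.25 ± 0.22 and -3.13 ± 0.14. N-cadherin (Cdh2), the main cadherin of the neuroepithelium, differed by -1.09 ± 0.14 and stayed above 10 on every day 6 array, at 10.17, 10.18 and 10.1 in day 6 cells, against 11.2 and 11.29 in NSCs. Ncam1 (-1.23 ± 0.18) differed by -0.86 without NSC replicate 2 and was then not called.

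Forebrain patterning factors, which give progenitors their position, were lower in 6 of 15 cases and within 2-fold in 9, against 86.5% of all genes within 2-fold, with a median of -0.54. Of the 10 active in NSCs 6 were lower and 4 were within 2-fold, and the 5 others within 2-fold (Emx1, Six3, Gsx1, Gsx2 and Nkx2-1) averaged under 7.67 in both groups. Lhx2, a LIM factor that specifies cortex against its midline, had 7.97, 8.04 and 8.09 in day 6 cells, against 10.11 and 10.29 in NSCs (-2.17 ± 0.12, adjusted p = 1.2e-07). Dlx1, of ventral interneuron progenitors, had 6.63, 6.52 and 6.82 in day 6 cells, against 8.36 and 8.65 in NSCs (-1.85 ± 0.13, adjusted p = 7.3e-07), Emx2 differed by -1.09 ± 0.1, Meis2 by -1.07 ± 0.08 and Otx2 by -1.58 ± 0.26 (-1.05 without NSC replicate 1). Otx1 was shared at 9.16, 9.12 and 9.1 in day 6 cells, against 9.34 and 9.07 in NSCs, with an interval from -0.37 to 0.21, and averaged 9.59 ± 0.26 in astrocytes and 7.16 and 7.09 in the iPSC groups. Pbx3, Meis1 and Dlx2 were within 2-fold, with differences of -0.74 ± 0.08, -0.46 ± 0.11 and -0.52 ± 0.17, each with the day 6 mean below that of NSCs. Fezf2, a factor of deep layer cortical neurons, was called lower (-1.72 ± 0.36, adjusted p = 0.00267) on NSC levels that themselves differed, 6.97 and 8.74. Its difference was -2.61 without NSC replicate 1 and -0.84 without replicate 2.

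Genes of the hindbrain, spinal cord and neural crest were low in both groups. None of the 16 averaged 7.67 or more in NSCs, and 15 were within 2-fold. The remaining gene was Tfap2a, a factor of neural crest and epidermis, with 7.03, 7.15 and 7.38 in day 6 cells, against 5.48 and 5.36 in NSCs (1.77 ± 0.1, adjusted p = 1.4e-07), against 5.81 ± 0.12 in astrocytes.

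Of 13 neurogenic factors 5 were lower, 6 were within 2-fold and 2 were unresolved, against 5.94% lower and 86.5% within 2-fold over all genes. Of the 6 active in NSCs 3 were lower and 1, Insm1, was within 2-fold. The other 5 within 2-fold (Neurog1, Neurog2, Neurod4, Eomes and Dlx6) averaged under 7.67 in both groups. Tbr1, of early cortical neurons, had 5.56, 5.56 and 5.65 in day 6 cells, against 8.89 and 10.0 in NSCs (-3.85 ± 0.23, adjusted p = 1.6e-07). Sox4, which promotes neuronal differentiation, had 8.59, 8.41 and 8.49 in day 6 cells, against 10.72 and 11.01 in NSCs (-2.37 ± 0.13, adjusted p = 7.7e-08), and Myt1, Neurod1 and Dlx5 differed by -1.55 ± 0.07, -1.56 ± 0.25 and -1.36 ± 0.11. Insm1, a zinc finger factor of basal progenitors, was shared at 9.02, 8.66 and 9.06 in day 6 cells, against 8.85 and 8.21 in NSCs, while astrocytes averaged 6.84 ± 0.18 and the iPSC groups 6.92 and 7.21. Sox11, the partner of Sox4, was unresolved at 9.85, 9.7 and 9.63 in day 6 cells, against 10.3 and 10.73 in NSCs (-0.79 ± 0.15, adjusted p = 0.00125), against 7.22 ± 0.25 in astrocytes.

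Of 19 neuronal proteins 14 were lower, 2 were higher and 1 was within 2-fold, against 5.94%, 2.94% and 86.5% of all genes. Their median was -2.77, the lowest among the lists. Crmp1, which acts in axon guidance, had 6.99, 6.92 and 6.85 in day 6 cells, against 11.34 and 11.63 in NSCs (-4.57 ± 0.13, adjusted p = 6.6e-10). Map2, the microtubule protein of dendrites, had 7.06, 7.12 and 6.92 in day 6 cells, against 11.38 and 11.47 in NSCs (-4.4 ± 0.09, adjusted p = 1.3e-10). Doublecortin (Dcx), of migrating young neurons, had 5.48, 5.54 and 5.49 in day 6 cells, against 8.84 and 9.97 in NSCs (-3.9 ± 0.23, adjusted p = 1.7e-07), and the filament protein Ina differed by -3.73 ± 0.19. Dcx averaged 5.45 ± 0.04 in astrocytes and 5.5 and 5.52 in the iPSC groups, so the level of the NSCs was the one that stood apart. Elavl2, a neuronal RNA-binding protein, was the shared member, at 8.25, 8.35 and 8.38 in day 6 cells, against 8.32 and 8.64 in NSCs.

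The NSC arrays differed between themselves in these genes. Replicate 2 read higher than replicate 1 for 15 of 19 neuronal proteins and 9 of 13 neurogenic factors, as it did for 55.4% of all genes. It was above replicate 1 for Dcx (9.97 and 8.84), Tbr1 (10.0 and 8.89), Fezf2 (8.74 and 6.97), Neurod1 (7.24 and 6.08), Syt1 (9.87 and 9.01) and L1cam (8.95 and 7.94), and below it for Insm1 (8.21 and 8.85), Hes6 (8.78 and 9.19), Gad2 (7.44 and 7.69) and Gap43 (10.52 and 10.71). The calls of Tubb3, Fezf2 and Neurod1 depended on that array, with differences of -0.56, -0.84 and -0.98 without it. Of the 19 neuronal proteins, 14 were lower without replicate 1 and 13 without replicate 2. The part that neurons within the neural stem cell cultures have in these differences was not tested.

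Both neuronal proteins that were higher go against the rest of their list. Neurofilament light chain (Nefl), the main filament of axons, had 11.75, 11.83 and 11.67 in day 6 cells, against 8.04 and 7.89 in NSCs (3.79 ± 0.11, adjusted p = 1.1e-09), with astrocytes at 6.61 ± 0.22 and the iPSC groups at 8.3 and 9.05. Its partner Nefm differed by -1.05 ± 0.07, and by -0.98 without NSC replicate 1. Stathmin 2 (Stmn2), which binds tubulin, had 12.19, 12.23 and 12.23 in day 6 cells, against 10.36 and 11.44 in NSCs (1.32 ± 0.23, adjusted p = 0.00075), and its difference was 0.78 without NSC replicate 1.

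Among 12 genes of the oligodendrocyte lineage, 3 were lower, 2 were higher and 6 were within 2-fold. These counts compare with 5.94%, 2.94% and 86.5% of all genes, and the median was -0.29. The receptor Pdgfra, which marks oligodendrocyte precursors, had 6.09, 6.31 and 6.25 in day 6 cells, against 9.51 and 10.03 in NSCs (-3.55 ± 0.2, adjusted p = 9.2e-08). Cspg4 (NG2) and Cnp were lower by -1.21 ± 0.15 and -1.03 ± 0.1, and without NSC replicate 2 their differences were -0.98 and -0.89 and only Pdgfra kept its call. The genes called higher were Mal, a proteolipid of raft membranes in myelin and epithelia, and Cldn11, a claudin of myelin and of tight junctions in testis. Mal had 10.4, 10.13 and 10.39 in day 6 cells, against 6.2 and 6.36 in NSCs (4.03 ± 0.11, adjusted p = 7.2e-10), and Cldn11 had 10.2, 9.89 and 9.32 in day 6 cells, against 6.57 and 6.63 in NSCs (3.2 ± 0.21, adjusted p = 3.8e-07). Both read under 7 in every other group on average, and the myelin genes Mbp, Mag and Mog were within 2-fold. All 6 members within 2-fold averaged under 7.67 in NSCs, so they do not show shared expression. The 3 members active in NSCs were all lower, but that limit favours lower calls and leaves out Mal and Cldn11, which were higher.

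Genes of astrocyte maturation had a median of -0.89. They were lower in 7 of 14 cases and within 2-fold in 5, against 5.94% and 86.5% of all genes. Of those 5, 4 were not active in NSCs. For the 7 lower genes neural stem cells read higher than cells that had been astrocytes before infection. Sparcl1 (hevin), a matrix protein that astrocytes secrete to build synapses, had 6.11, 6.2 and 6.38 in day 6 cells, against 10.19 and 9.88 in NSCs (-3.81 ± 0.13, adjusted p = 3.1e-09), against 11.65 ± 0.11 in astrocytes. Atp1b2, Aldoc and the folate enzyme Aldh1l1 differed by -2.98 ± 0.12, -2.9 ± 0.15 and -2.43 ± 0.11, and the metallothionein Mt3 by -1.69 ± 0.28. Mt3 read 9.91 and 8.58 in the NSC replicates, and its difference was -1.03 without NSC replicate 1. Glutamine synthetase (Glul) was within 2-fold, at 9.82, 9.82 and 9.83 in day 6 cells, against 10.23 and 10.04 in NSCs. Aqp4, the water channel of astrocyte endfeet, was low in both groups, 5.47, 5.51 and 5.43 in day 6 cells, against 5.69 and 5.58 in NSCs, against 10.34 ± 0.11 in astrocytes.

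The signalling pathways that sustain NSCs differed in how far they were shared. Of 19 genes of the Notch pathway 7 were lower, 1 was higher, 7 were within 2-fold and 4 were unresolved, with a median of -0.77. Over all genes 5.94% were lower, 2.94% higher and 86.5% within 2-fold. The ligand genes Dll1 and Dll3, made by cells leaving the stem cell state, had 7.06, 6.68 and 6.79 in day 6 cells, against 9.1 and 8.91 in NSCs for Dll1 (-2.16 ± 0.11, adjusted p = 5.6e-08) and 6.3, 6.27 and 6.21 in day 6 cells, against 8.78 and 8.17 in NSCs for Dll3 (-2.22 ± 0.14, adjusted p = 3e-07). Dner, a related membrane protein of neurons and glia, had 6.19, 6.46 and 6.31 in day 6 cells, against 9.73 and 10.12 in NSCs (-3.61 ± 0.12, adjusted p = 2.1e-09). The ligand Jag1 was within 2-fold (-0.5 ± 0.1), and Jag2 was higher, at 8.42, 8.39 and 8.02 in day 6 cells, against 6.88 and 6.99 in NSCs (1.34 ± 0.12, adjusted p = 4e-06). Among receptors Notch1 was lower, at 8.05, 7.86 and 8.08 in day 6 cells, against 9.61 and 9.73 in NSCs (-1.67 ± 0.1, adjusted p = 1.5e-07), and Notch2 was within 2-fold, at 8.88, 8.83 and 8.62 in day 6 cells, against 8.14 and 8.23 in NSCs (0.59 ± 0.09, adjusted p = 0.00032). Rbpj, the DNA-binding partner of all Notch receptors, and the glycosyltransferase Rfng were within 2-fold (-0.59 ± 0.07 and 0.16 ± 0.16), and the related Mfng was lower (-1.82 ± 0.16). The target genes Hes1, Hes5 and Hey1 were unresolved, with differences of -0.67 ± 0.26, -0.77 ± 0.15 and -0.95 ± 0.18, and without NSC replicate 2 each was called lower (-1.1, -1.04 and -1.13).

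Of 17 genes of the FGF and EGF pathway 10 were lower, none was higher and 6 were within 2-fold, with a median of -1.17. The shares over all genes were 5.94%, 2.94% and 86.5%. All 3 day 6 arrays lay below both NSC arrays in all 17, as they did for 24.2% of all genes. The EGF receptor (Egfr) had 8.87, 8.68 and 8.44 in day 6 cells, against 10.79 and 10.65 in NSCs (-2.06 ± 0.14, adjusted p = 4.9e-07), and Fgfr3 had 7.51, 7.22 and 7.55 in day 6 cells, against 9.67 and 10.1 in NSCs (-2.46 ± 0.13, adjusted p = 7e-08). Fgfr1, the main FGF receptor of cultured NSCs, was within 2-fold, at 9.77, 9.7 and 9.75 in day 6 cells, against 10.15 and 9.96 in NSCs, with an interval from -0.46 to -0.16. Of genes that the pathway induces, Spry1 (-2.62 ± 0.16), the phosphatase Dusp6 (-1.44 ± 0.19) and the ETS factor Etv1 (-1.68 ± 0.1) were lower, and Etv5 (-0.27 ± 0.07), Spred1 (-0.57 ± 0.08) and Spred2 (-0.23 ± 0.1) were within 2-fold. Cyclin D1 (Ccnd1), through which growth factors drive entry into the cycle, was among the lower genes, at 11.34, 11.19 and 11.17 in day 6 cells, against 12.39 and 12.42 in NSCs (-1.17 ± 0.11, adjusted p = 5.9e-06). bFGF and EGF were in the medium of the NSCs, and the labels list neither for day 6 cells.

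Of 10 genes of the Hedgehog pathway 7 were within 2-fold, against 86.5% of all genes. Of the 6 active in NSCs 4 were within 2-fold, namely Smo, Gli2, Gli3 and Sufu. Smo, which carries the signal over the membrane, had 10.52, 10.47 and 10.48 in day 6 cells, against 10.36 and 10.56 in NSCs and an interval from -0.21 to 0.26. Gli2, Gli3 and Sufu differed by -0.2 ± 0.13, -0.31 ± 0.07 and -0.07 ± 0.1. The coreceptor Gas1 was lower, at 7.28, 7.78 and 7.67 in day 6 cells, against 9.99 and 9.85 in NSCs (-2.34 ± 0.17, adjusted p = 9.2e-07), and the ligand trap Hhip was higher, at 8.25, 8.25 and 8.0 in day 6 cells, against 6.77 and 6.58 in NSCs (1.49 ± 0.16, adjusted p = 1.6e-05).

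Of 23 genes of the Wnt pathway 8 were lower, 1 was higher and 11 were within 2-fold, with a median of -0.45. Over all genes 5.94% were lower and 86.5% within 2-fold. Wnt7a, a ligand of cortical progenitors, had 6.18, 6.1 and 6.14 in day 6 cells, against 8.31 and 8.14 in NSCs (-2.09 ± 0.11, adjusted p = 7.8e-08). The secreted modulator Sfrp2 had 6.77, 6.71 and 6.78 in day 6 cells, against 9.88 and 9.72 in NSCs (-3.04 ± 0.15, adjusted p = 3.2e-08), and its relative Sfrp1 was within 2-fold at 10.2, 10.19 and 10.21 in day 6 cells, against 10.41 and 10.42 in NSCs. Axin2, a target gene of the pathway, had 6.65, 6.71 and 6.69 in day 6 cells, against 8.15 and 8.25 in NSCs (-1.51 ± 0.14, adjusted p = 7.4e-06). Receptors changed in opposite directions: Fzd9 was lower (-2.03 ± 0.15) and Fzd5 was higher, at 8.9, 9.06 and 9.03 in day 6 cells, against 6.93 and 6.75 in NSCs (2.16 ± 0.13, adjusted p = 1.8e-07). The coreceptors Lrp5 and Lrp6 and the nuclear factor Tcf7l2 were within 2-fold (0.2 ± 0.1, -0.11 ± 0.06 and -0.59 ± 0.14).

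The bone morphogenetic protein (BMP) and TGF-beta pathway was within 2-fold for 12 of 17 genes, 6 of them active in NSCs, against 86.5% of all genes, with a median of 0.07, the same as over all genes. Bmp7 had 6.49, 6.79 and 6.98 in day 6 cells, against 10.55 and 10.33 in NSCs (-3.69 ± 0.17, adjusted p = 2.6e-08), and the receptors Bmpr1b and Tgfbr1 differed by -1.77 ± 0.14 and -1.33 ± 0.1. The receptors Bmpr1a and Bmpr2 and the inhibitors Id2 and Id4 were within 2-fold (-0.38 ± 0.1, -0.53 ± 0.08, 0.0 ± 0.22 and -0.2 ± 0.15). Id1, an early target of BMP, was higher, at 10.99, 10.28 and 10.73 in day 6 cells, against 9.29 and 8.31 in NSCs (1.86 ± 0.26, adjusted p = 0.00014).

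The cell cycle list was the only one of the 30 in which every measured gene was shared. All 28 were active in NSCs, where 78.2% of genes were within 2-fold. Cyclin D1, which was lower, and the Cdkn2a locus, which was higher, were counted in other lists. All 28 cell cycle genes were within 2-fold, none was called by limma (6 had an unadjusted p under 0.05, and the same number an adjusted one), and their differences ran from -0.28 to 0.59 with a median of 0.11. The proliferation antigen Mki67 had 11.06, 11.13 and 11.25 in day 6 cells, against 11.41 and 11.43 in NSCs, with an interval from -0.57 to 0.01. The clamp protein Pcna had 11.7, 11.78 and 11.73 in day 6 cells, against 11.69 and 11.74 in NSCs, and cyclin A2 (Ccna2) had 11.28, 11.38 and 11.36 in day 6 cells, against 11.68 and 11.52 in NSCs. The ribonucleotide reductase subunit Rrm2 had 11.33, 11.21 and 11.25 in day 6 cells, against 11.18 and 11.08 in NSCs. Astrocytes averaged 9.72 ± 0.29 for Mki67, 10.57 ± 0.19 for Pcna, 9.56 ± 0.39 for Ccna2 and 9.72 ± 0.41 for Rrm2. In iPSCs from astrocytes and from MEFs the means were 10.61 and 10.58 for Mki67 and 11.64 and 11.48 for Pcna. They were 11.07 and 11.07 for Ccna2 and 11.22 and 11.04 for Rrm2. High levels of these genes were therefore not particular to day 6 cells and NSCs. Within 2-fold held for 27 of the 28 in every alternative.

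Among genes of DNA methylation and Polycomb repression 14 of 18 were within 2-fold, 10 of them active in NSCs, against 86.5% of all genes. Ezh2 and Suz12, core subunits of the repressive complex that methylates histone H3, differed by -0.04 ± 0.08 and 0.54 ± 0.07, and the maintenance methyltransferase Dnmt1 and its partner Uhrf1 by -0.22 ± 0.14 and -0.27 ± 0.14. The de novo methyltransferase Dnmt3a was lower, at 7.89, 7.91 and 8.06 in day 6 cells, against 9.07 and 9.34 in NSCs (-1.25 ± 0.14, adjusted p = 2.8e-05). Jarid2, a partner of the complex, Ezh1 and Tet2 were higher, with differences of 1.18 ± 0.11, 1.16 ± 0.1 and 1.07 ± 0.14. Jarid2 was at 1.0 without NSC replicate 1, and Tet2 was at 0.96 without day 6 replicate 3. The chromatin remodeller BAF was within 2-fold for 11 of 16 subunits, against 86.5% of all genes. Among them were Smarca4 (Brg1), the motor (-0.12 ± 0.1), Smarcc1 (0.09 ± 0.07), Arid1a (-0.07 ± 0.08) and Smarcd1 (-0.57 ± 0.09). Lower were Smarcc2, at 8.95, 8.88 and 9.01 in day 6 cells, against 10.23 and 10.36 in NSCs (-1.34 ± 0.07, adjusted p = 6.1e-08), Smarcd3 (-1.55 ± 0.08) and Actl6b, the subunit of neurons (-1.52 ± 0.13).

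RNA-binding proteins and growth regulators of progenitors were lower in 4 of 11 cases, against 5.94% of all genes. They were within 2-fold in 5 cases, against 86.5%. Musashi 1 (Msi1), a translational regulator that marks neural stem cells, had 7.78, 7.7 and 7.7 in day 6 cells, against 9.07 and 8.98 in NSCs (-1.29 ± 0.14, adjusted p = 2.2e-05). The fetal messenger RNA-binding proteins Igf2bp1 and Igf2bp3 had 6.89, 6.69 and 6.71 in day 6 cells, against 9.39 and 9.03 in NSCs for Igf2bp1 (-2.44 ± 0.12, adjusted p = 3.4e-08) and 6.95, 6.88 and 7.2 in day 6 cells, against 10.11 and 10.0 in NSCs for Igf2bp3 (-3.05 ± 0.13, adjusted p = 1.5e-08). Both are genes of early tissues, with astrocyte means of 6.1 ± 0.12 and 6.35 ± 0.13. Qk, of glial RNA splicing, differed by -1.56 ± 0.06, and by -0.41 where all its probe sets were averaged. The regulators of self-renewal Bmi1 and Hmga2 were shared, at 9.26, 9.24 and 8.96 in day 6 cells, against 9.12 and 9.26 in NSCs for Bmi1 and 9.01, 8.8 and 8.88 in day 6 cells, against 8.8 and 8.42 in NSCs for Hmga2. Mycn had 7.72, 7.6 and 7.74 in day 6 cells, against 7.54 and 7.93 in NSCs, with an interval from -0.41 to 0.31.

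Of 19 measured genes of cholesterol synthesis and uptake, all of them active in NSCs, 10 were lower, 1 was higher, 6 were within 2-fold and 2 were unresolved, with a median of -1.08. Among all genes active in NSCs 13.2% were lower, 1.98% higher and 78.2% within 2-fold. All 3 day 6 arrays lay below both NSC arrays for 18 of the 19, against 24.2% of all genes. Sequences upstream of the start of 3 of the lower genes are shown because these genes moved together. They are the 250 bases before the annotated start in RefSeq, build GRCm38.p6, on the plus strand, with capitals marking 2 motifs searched on both strands: the CCAAT box (read as CCAAT or its reverse complement ATTGG) and the core of the sterol element, CACCCCA. The windows are chr10:76531355-76531604 for Lss, chr13:119690101-119690350 for Hmgcs1 and chr5:28071162-28071411 for Insig1.
Lss: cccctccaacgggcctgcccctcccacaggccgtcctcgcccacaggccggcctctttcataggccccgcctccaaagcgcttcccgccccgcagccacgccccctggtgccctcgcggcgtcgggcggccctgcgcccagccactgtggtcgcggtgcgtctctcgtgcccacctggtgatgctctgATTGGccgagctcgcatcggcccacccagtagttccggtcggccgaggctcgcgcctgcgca
Hmgcs1: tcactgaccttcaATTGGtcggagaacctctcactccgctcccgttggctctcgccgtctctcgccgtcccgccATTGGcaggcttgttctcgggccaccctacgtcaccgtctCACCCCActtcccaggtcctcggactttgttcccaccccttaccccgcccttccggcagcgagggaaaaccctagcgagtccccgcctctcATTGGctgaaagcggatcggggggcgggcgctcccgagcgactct
Insig1: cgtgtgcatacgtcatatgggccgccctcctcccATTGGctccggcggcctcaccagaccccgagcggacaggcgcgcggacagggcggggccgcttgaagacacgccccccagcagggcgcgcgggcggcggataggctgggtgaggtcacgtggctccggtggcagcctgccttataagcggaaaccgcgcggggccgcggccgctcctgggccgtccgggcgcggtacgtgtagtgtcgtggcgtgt

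Of the cholesterol genes, 16 have 19 windows in the table, and a CCAAT box was found in 16 of the 19 windows, against 33.9% of 32851 mouse windows of the same length. The windows without one belong to Dhcr7 and Pmvk, which have several. All 16 genes, 9 lower and 7 others, had a match in at least 1 window. The CACCCCA core was found in 2 of the 19 windows, those of Hmgcs1 (lower) and Srebf2 (within 2-fold), against 6.69% of all windows. The motifs do not overlap each other and are matches of letters only.

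Hmgcs1 makes hydroxymethylglutaryl coenzyme A, the start of the pathway, and had 10.22, 10.23 and 10.3 in day 6 cells, against 11.88 and 12.16 in NSCs (-1.77 ± 0.11, adjusted p = 2.1e-07). Lss closes the ring of lanosterol, and had 8.56, 8.32 and 8.49 in day 6 cells, against 10.48 and 10.28 in NSCs (-1.93 ± 0.11, adjusted p = 8.5e-08). The late steps carried out by Nsdhl and Dhcr7 differed by -1.55 ± 0.08 and -1.55 ± 0.1. Of the steps before Lss, Mvd and Sqle were lower as well (-1.08 ± 0.08 and -1.18 ± 0.08), Mvk, Pmvk, Idi1 and Fdft1 were within 2-fold (-0.67 ± 0.06, -0.55 ± 0.08, -0.41 ± 0.16 and -0.39 ± 0.1), and Fdps was unresolved (-0.85 ± 0.09). After it, Cyp51, Msmo1 and Tm7sf2 were lower (-1.39 ± 0.12, -1.47 ± 0.11 and -1.09 ± 0.09) and Sc5d was unresolved (-0.94 ± 0.1). Tm7sf2 differed by -0.91 without NSC replicate 1. Insig1, which restrains the pathway when sterols are plentiful and is itself one of its target genes, had 9.91, 9.31 and 9.74 in day 6 cells, against 11.51 and 11.07 in NSCs (-1.64 ± 0.18, adjusted p = 2.6e-05), with day 6 replicate 2 the lowest. Hsd17b7 (-0.83 ± 0.07) and the transcription factor Srebf2 (-0.67 ± 0.07) were within 2-fold. Ebp, an isomerase of the late steps, was the member called higher, at 8.87, 8.85 and 8.85 in day 6 cells, against 7.88 and 7.79 in NSCs (1.02 ± 0.08, adjusted p = 1.8e-06), and it was at 0.98 without NSC replicate 2. Serum, which carries cholesterol, was in the medium of day 6 cells and not in that of the NSCs, and its part in the difference was not tested.

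**Figure D3:**
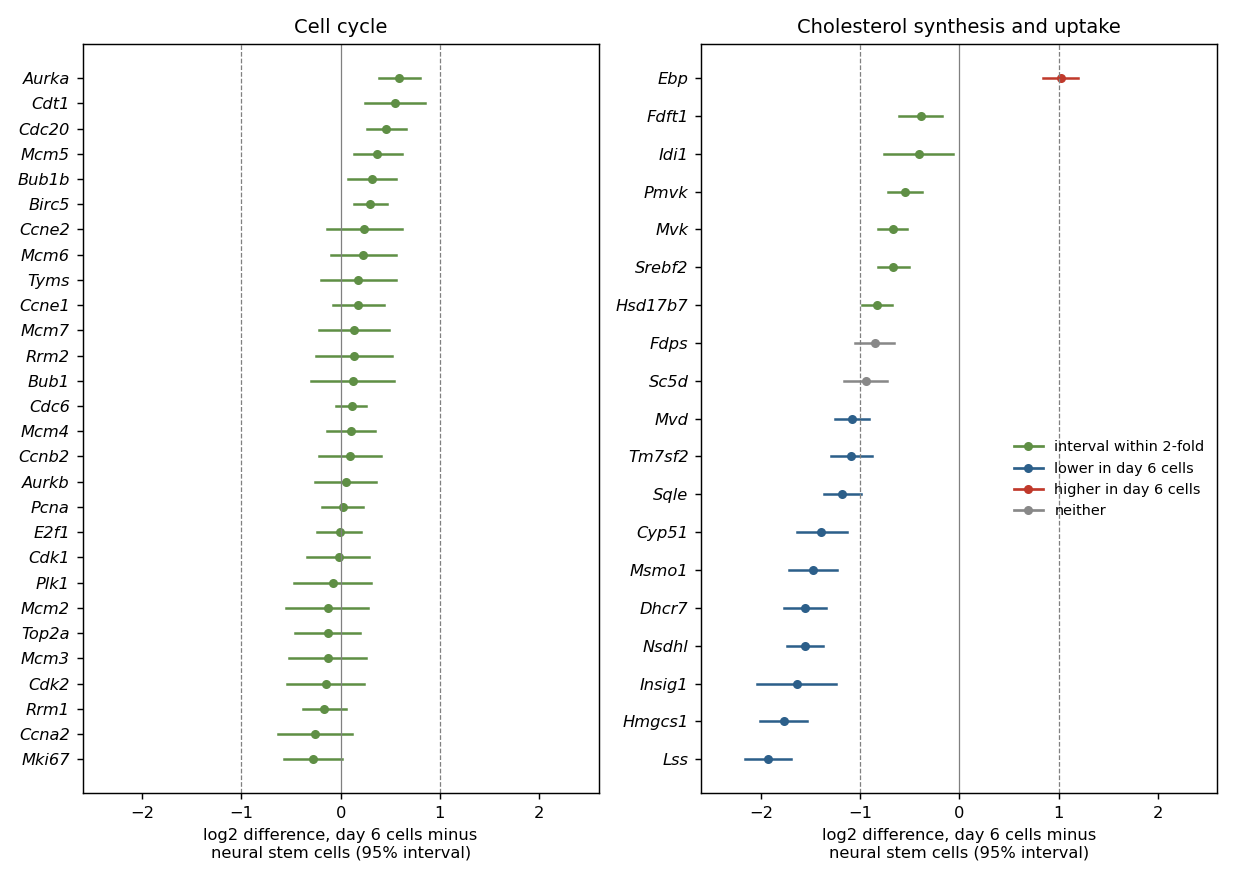
Log2 difference, day 6 cells minus neural stem cells, of each of 28 cell cycle genes (left) and 19 genes of cholesterol synthesis and uptake (right), with 95% confidence intervals from limma and dashed lines at -1 and 1 (2-fold). All cell cycle intervals lie between the dashed lines, whereas 18 of 19 cholesterol genes lie below 0 and 10 are lower in day 6 cells (blue).

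Fatty acid genes were lower in 4 of 11 cases and within 2-fold in 7, with a median of -0.67. All 11 were active in NSCs, where 13.2% of genes were lower and 78.2% within 2-fold. The lower ones act on desaturation and on elongation of long chains: Elovl2 had 5.85, 5.97 and 6.16 in day 6 cells, against 9.96 and 9.83 in NSCs (-3.91 ± 0.17, adjusted p = 1.4e-08), Fads2 had 9.62, 9.45 and 9.64 in day 6 cells, against 11.26 and 11.26 in NSCs (-1.69 ± 0.09, adjusted p = 5e-08), and Scd2 and Fads1 differed by -1.37 ± 0.06 and -1.05 ± 0.08. Acly, Scd1, Elovl5 and Elovl6 were within 2-fold. Serine synthesis and glycolysis were within 2-fold for 13 of 17 genes, all 17 active in NSCs. That share was near the 78.2% of all genes active in NSCs. Among the 13 were Hk1 (0.12 ± 0.08), Aldoa (0.01 ± 0.07), Pgk1 (-0.02 ± 0.13) and Ldha (0.31 ± 0.09). The phosphofructokinase gene Pfkp was higher, at 9.65, 9.46 and 9.62 in day 6 cells, against 7.75 and 7.92 in NSCs (1.75 ± 0.16, adjusted p = 5.8e-06).

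Imprinted genes, expressed from 1 parental copy and abundant in fetal tissue, were lower in 7 of 15 cases, against 5.94% of all genes. Their median was -0.96. Neuronatin (Nnat) had 7.8, 7.88 and 7.7 in day 6 cells, against 12.17 and 12.39 in NSCs (-4.49 ± 0.17, adjusted p = 4.8e-09), and Mest had 9.21, 8.83 and 9.12 in day 6 cells, against 12.82 and 12.66 in NSCs (-3.68 ± 0.23, adjusted p = 2.7e-07). Necdin (Ndn), of neurons, and the growth factor receptor adaptor Grb10 had differences of -2.37 ± 0.16 and -1.37 ± 0.13. The long noncoding RNA Meg3 differed by -1.57 ± 0.26, and by -0.95 without NSC replicate 1, in which it read 9.38 against 8.13 in replicate 2. Igf2r, Impact and Plagl1 were within 2-fold (-0.02 ± 0.15, 0.54 ± 0.07 and 0.2 ± 0.14).

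Programmes that were higher in day 6 cells lie outside the neural stem cell lists. Of 23 genes of the pluripotency network, which keeps embryonic stem cells undifferentiated, 8 were higher, none was lower and 14 were within 2-fold, with a median of 0.53. Over all genes 2.94% were higher. The 8 include Pou5f1, a delivered factor whose probe set was not tested for retroviral transcripts. The nuclear receptor Nr0b1 (Dax1) had 10.46, 10.52 and 10.61 in day 6 cells, against 5.3 and 5.27 in NSCs (5.25 ± 0.13, adjusted p = 3.7e-10), and iPSCs from astrocytes averaged 10.15. L1td1, an RNA-binding protein of embryonic stem cells, had 9.46, 9.46 and 9.34 in day 6 cells, against 6.07 and 5.77 in NSCs (3.5 ± 0.14, adjusted p = 1e-08). The zinc finger factor Sall4 had 9.28, 9.28 and 9.25 in day 6 cells, against 6.5 and 6.5 in NSCs (2.77 ± 0.14, adjusted p = 4.1e-08). Their levels in iPSCs from astrocytes were 10.66 for L1td1 and 11.0 for Sall4. Nanog had 7.93, 7.72 and 8.24 in day 6 cells, against 6.38 and 6.51 in NSCs (1.52 ± 0.14, adjusted p = 7.2e-06), against 11.27 in iPSCs from astrocytes, and Nr5a2 differed by 1.94 ± 0.09. Of the 14 genes within 2-fold, 13 were not active in NSCs (all but Klf2), among them Dppa5a at 5.94, 6.1 and 5.93 in day 6 cells, against 5.93 and 6.0 in NSCs, against 11.31 in iPSCs from astrocytes. The 8 calls were the same in every alternative and with any 1 of the 5 arrays left out.

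Epithelial genes were higher in 12 of 25 cases, against 2.94% of all genes, and none was lower, with a median of 0.89. Another 12 were within 2-fold, 11 of them not active in NSCs. All 3 day 6 arrays lay above both NSC arrays in all 25, as they did for 39.7% of all genes. E-cadherin (Cdh1), the cadherin of epithelia, had 8.92, 8.87 and 8.58 in day 6 cells, against 6.24 and 6.36 in NSCs (2.5 ± 0.11, adjusted p = 2e-08). Epcam had 8.64, 8.62 and 8.55 in day 6 cells, against 5.43 and 5.37 in NSCs (3.21 ± 0.08, adjusted p = 2.7e-10), and desmoplakin (Dsp), which anchors keratins at desmosomes, had 9.47, 9.43 and 8.96 in day 6 cells, against 6.32 and 6.4 in NSCs (2.93 ± 0.17, adjusted p = 1.7e-07). Other desmosome genes moved with them: Perp differed by 4.44 ± 0.16, Pkp2 by 2.77 ± 0.15 and Jup by 2.71 ± 0.13. Pkp2 and Jup were also present in astrocytes, at 8.11 ± 0.11 and 9.54 ± 0.15. The keratin gene Krt8 was within 2-fold, at 8.82, 8.54 and 8.46 in day 6 cells, against 8.2 and 7.82 in NSCs. Zeb1 and Zeb2, repressors of E-cadherin that are also genes of neural progenitors, were lower, with 8.5, 8.35 and 8.48 in day 6 cells, against 11.09 and 11.13 in NSCs for Zeb1 (-2.67 ± 0.11, adjusted p = 1e-08) and a difference of -2.37 ± 0.16 for Zeb2. They were the lower members of the mesenchymal list, in which 13 of 22 genes were within 2-fold, against 86.5% of all genes. Of those 13, 12 were not active in NSCs. Fibronectin (Fn1) and Timp1 were higher (1.71 ± 0.13 and 2.48 ± 0.13) and Sparc was within 2-fold (0.54 ± 0.2).

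**Figure D4:**
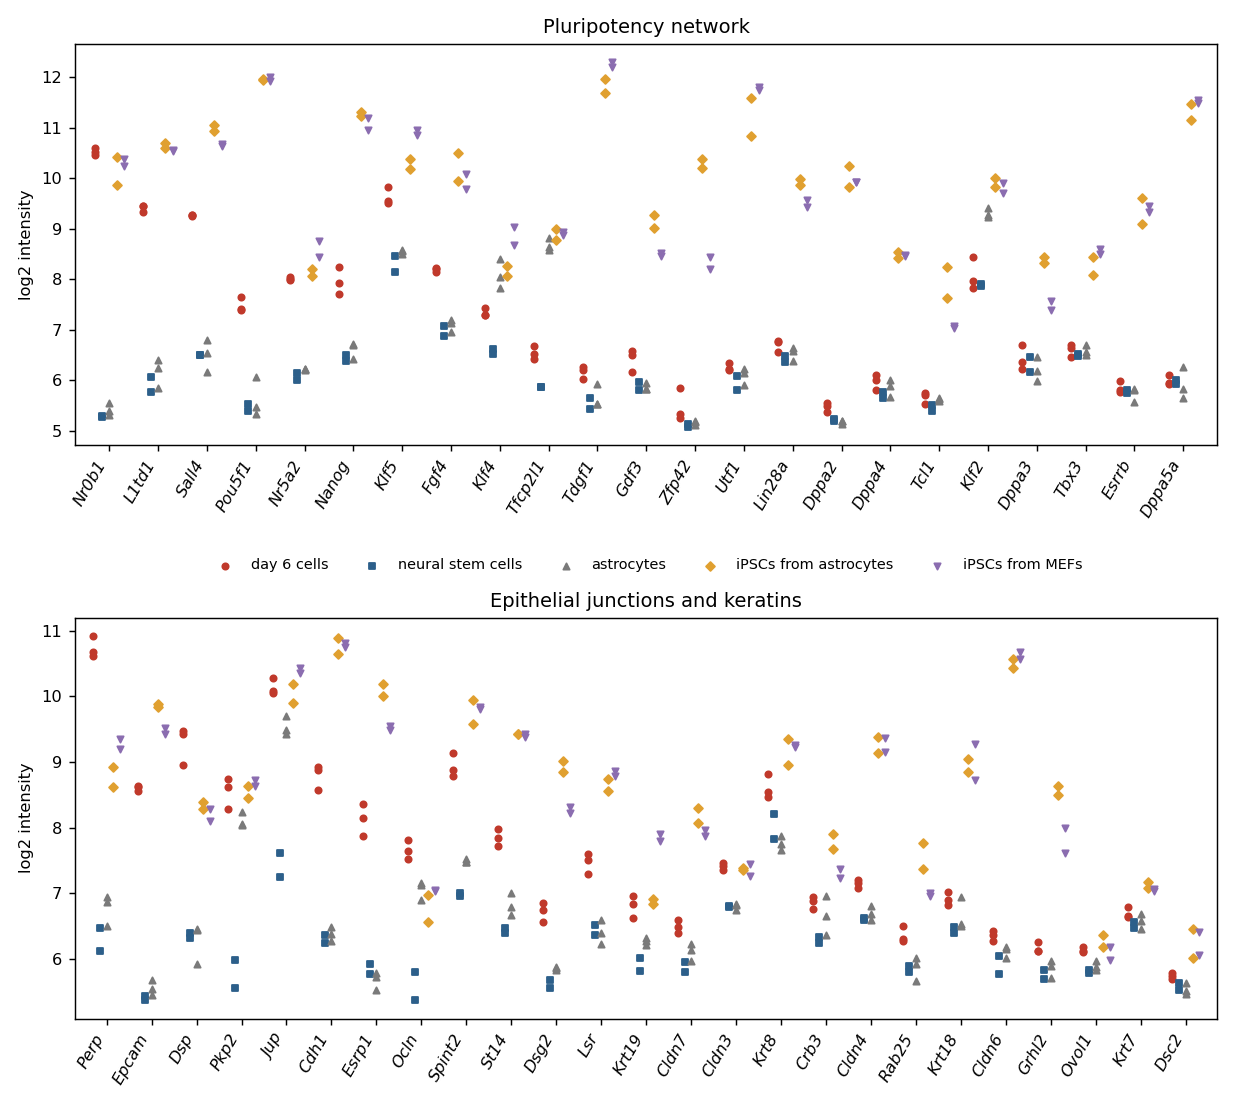
Log2 intensity on each array of the 23 pluripotency genes (upper panel) and 25 epithelial genes (lower panel) in day 6 cells (red), neural stem cells (blue), astrocytes (grey), iPSCs from astrocytes (orange) and iPSCs from MEFs (purple), ordered by the difference between day 6 cells and neural stem cells. Day 6 cells reach iPSC levels for Nr0b1, and the genes at the right lie near neural stem cells and astrocytes, below the iPSCs, as for Dppa5a (on average 5.97 in NSCs and 11.31 in iPSCs from astrocytes).

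LIF and STAT3 response genes were higher in 5 of 10 cases and within 2-fold in 5, against 2.94% and 86.5% of all genes. Their median was 0.81. The oncostatin M receptor (Osmr) had 8.97, 8.57 and 8.86 in day 6 cells, against 5.29 and 5.56 in NSCs (3.38 ± 0.2, adjusted p = 1.4e-07), against 11.21 ± 0.09 in astrocytes. The feedback inhibitor Socs3 had 8.76, 8.67 and 8.79 in day 6 cells, against 6.97 and 6.69 in NSCs (1.91 ± 0.21, adjusted p = 2.4e-05), and Bcl3, Socs2 and Junb differed by 1.95 ± 0.13, 1.69 ± 0.18 and 1.02 ± 0.16. Junb was at 0.83 without NSC replicate 2. The receptor genes Lifr and Il6st, Stat3 itself and Pim1 were within 2-fold (0.6 ± 0.11, 0.55 ± 0.1, -0.39 ± 0.09 and 0.6 ± 0.15). LIF was in the medium of day 6 cells, and the labels do not list it for the neural stem cells.

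Contractile and serum response genes were higher in 6 of 13 cases and within 2-fold in 6, 4 of the latter not active in NSCs, with a median of 0.81. The shares over all genes were 2.94% higher and 86.5% within 2-fold. Smooth muscle actin (Acta2) had 9.4, 9.36 and 9.27 in day 6 cells, against 6.38 and 6.82 in NSCs (2.75 ± 0.16, adjusted p = 1.6e-07), against 12.84 ± 0.26 in astrocytes. The matrix protein genes Ccn1 and Ccn2 had 11.19, 10.57 and 11.1 in day 6 cells, against 9.32 and 7.32 in NSCs for Ccn1 (2.63 ± 0.42, adjusted p = 0.00038) and 9.9, 9.19 and 10.05 in day 6 cells, against 7.29 and 6.78 in NSCs for Ccn2 (2.68 ± 0.24, adjusted p = 4.9e-06), and the NSC replicates of Ccn1 lay far apart (1.64 without NSC replicate 2). Tpm2 and Flna differed by 1.12 ± 0.15 and 1.08 ± 0.08, and Tpm1 and Srf were within 2-fold (0.7 ± 0.1 and 0.39 ± 0.14).

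Of the inhibitors of the cycle and targets of p53, the Cdkn2a locus was higher, at 9.51, 9.49 and 9.63 in day 6 cells, against 7.19 and 7.16 in NSCs (2.37 ± 0.1, adjusted p = 1.2e-08), and exceeded the astrocyte mean of 8.09 ± 0.15. It makes p16Ink4a and p19Arf, which restrain proliferation and reprogramming, and the files do not tell these transcripts apart. The other genes of the list were not called, among them Cdkn1b (-0.72 ± 0.11), Ccng1 (0.68 ± 0.09), Mdm2 (0.48 ± 0.19) and Trp53inp1 (0.32 ± 0.08).

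Among the genes with the highest differences were some that were low in all other groups of the series. The forkhead factor Foxd1, known from kidney stroma and the optic chiasm, had 10.96, 11.22 and 11.07 in day 6 cells, against 5.65 and 5.58 in NSCs (5.47 ± 0.12, adjusted p = 2.4e-10). Foxd1 averaged 5.87 ± 0.25 in astrocytes and 5.72 and 5.75 in the iPSC groups, below the level of every day 6 array. Akr1c18 (20 alpha-hydroxysteroid dehydrogenase), which breaks down progesterone, and the transglutaminase Tgm3 of hair and epidermis had the same pattern. Akr1c18 read 9.65, 9.34 and 10.4 in day 6 cells, against 5.07 and 5.12 in NSCs (4.71 ± 0.22, adjusted p = 3.2e-08), and Tgm3 read 10.61, 10.61 and 10.62 in day 6 cells, against 6.15 and 5.98 in NSCs (4.55 ± 0.09, adjusted p = 1.3e-10). In all, 108 of the 586 genes that were higher averaged at least 1 more in day 6 cells than in each of the 4 other groups.

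Others averaged above 7.67 in astrocytes. Annexin A1 (Anxa1), a phospholipid-binding protein, had 11.03, 11.13 and 10.13 in day 6 cells, against 5.15 and 5.41 in NSCs (5.48 ± 0.35, adjusted p = 3e-07), against 9.18 ± 0.05 in astrocytes, with replicate 3 the lowest of the day 6 arrays. Cyclooxygenase 2 (Ptgs2) had 11.03, 10.27 and 10.58 in day 6 cells, against 6.04 and 5.6 in NSCs (4.8 ± 0.26, adjusted p = 7e-08), against 10.77 ± 0.22 in astrocytes. The complement inhibitor Cd59a had 10.36, 10.21 and 10.6 in day 6 cells, against 5.56 and 5.75 in NSCs (4.74 ± 0.11, adjusted p = 2.7e-10), against 11.03 ± 0.06 in astrocytes. The calcium-binding protein S100a6 differed by 5.07 ± 0.22 and averaged 9.37 ± 0.21 in astrocytes. The adhesion protein Mpzl2, the inhibitor of Toll-like receptor signalling Irak3 and thyrotropin-releasing hormone (Trh) differed by 5.08 ± 0.11, 4.61 ± 0.09 and 4.48 ± 0.19. These last genes averaged 6.43 ± 0.16, 6.32 ± 0.12 and 5.82 ± 0.22 in astrocytes, under 7.67. In iPSCs from astrocytes they averaged 8.91, 7.88 and 11.27, above the day 6 mean for Trh.

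The strongest decreases outside the lists were in membrane proteins. Adgrg1 (Gpr56), an adhesion receptor of neural progenitors, had 6.47, 6.79 and 6.53 in day 6 cells, against 11.53 and 11.37 in NSCs (-4.85 ± 0.1, adjusted p = 2e-10). The lipid phosphatase Plpp3 had 6.57, 6.38 and 6.5 in day 6 cells, against 11.15 and 10.92 in NSCs (-4.56 ± 0.1, adjusted p = 2.2e-10), and the leucine-rich repeat protein Lrrn1 had 5.57, 5.75 and 5.75 in day 6 cells, against 10.1 and 10.3 in NSCs (-4.51 ± 0.14, adjusted p = 1.5e-09). The starting astrocytes averaged 10.12 ± 0.08 for Adgrg1, 11.89 ± 0.16 for Plpp3 and 6.59 ± 0.24 for Lrrn1, so the first pair read far above the day 6 level in the starting cells and Lrrn1 did not.

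Of 435 genes that averaged at least 1 more in NSCs than in astrocytes and both iPSC groups, 361 were lower in day 6 cells, 38 were within 2-fold, 2 were higher and 34 were unresolved. In 16 genes within 2-fold, both group means were at least 1 above those of astrocytes and of both iPSC groups. Both sets were chosen by their levels, which are given as a description. Besides Insm1 and Fabp5 the 16 include Gabra2, a subunit of the receptor for gamma-aminobutyric acid, with 8.96, 8.55 and 8.07 in day 6 cells, against 7.88 and 8.43 in NSCs, against 6.06 ± 0.22 in astrocytes. The doublecortin-like kinase Dclk2 had 9.4, 9.27 and 9.34 in day 6 cells, against 10.18 and 9.91 in NSCs, against 8.15 ± 0.15 in astrocytes. The methylcytosine dioxygenase Tet3 had 8.39, 8.4 and 8.24 in day 6 cells, against 8.81 and 9.06 in NSCs, and the RNA-binding ubiquitin ligase Mex3b had 8.17, 8.06 and 8.06 in day 6 cells, against 8.61 and 8.78 in NSCs. In Dclk2, Tet3, Fabp5 and Mex3b all day 6 arrays lay below both NSC arrays, and in Gabra2 and Insm1 the groups overlapped.

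A larger set of 99 genes within 2-fold was at least 1 higher in day 6 cells, neural stem cells and astrocytes than in both iPSC groups. It is a description chosen by level as well, and it holds Pax6 and Otx1. The tetraspanin Tspan12 had 9.58, 9.7 and 9.65 in day 6 cells, against 10.05 and 9.9 in NSCs, with 9.55 ± 0.09 in astrocytes and 6.39 in iPSCs from astrocytes. The acyl-CoA synthetase Acsbg1, of brain, had 9.85, 9.97 and 9.91 in day 6 cells, against 10.82 and 10.35 in NSCs, with 11.41 ± 0.12 in astrocytes. Carboxypeptidase E (Cpe), which processes peptide hormones, had 9.75, 9.78 and 9.66 in day 6 cells, against 9.78 and 10.29 in NSCs, with 12.86 ± 0.04 in astrocytes. For these 3 genes the astrocyte mean lay near or above the day 6 mean.

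Of 18 genes of microglia and leukocytes 1 averaged 7.67 or more in day 6 cells and 0 in NSCs, and of 16 genes of endothelium and pericytes 0 did in either group. The log2 of the summed intensity of the microglia list was 10.49 to 10.55 in day 6 cells and 10.11 to 10.13 in NSCs, and that of the endothelial list was 10.21 to 10.3 in day 6 cells and 10.09 to 10.17 in NSCs. In each list 1 gene was higher: Laptm5, a lysosomal protein of blood cells, with 8.61, 8.49 and 8.49 in day 6 cells, against 6.32 and 6.5 in NSCs (2.12 ± 0.23, adjusted p = 2.2e-05), and the receptor Tek, with 7.1, 6.85 and 6.78 in day 6 cells, against 5.58 and 5.73 in NSCs (1.26 ± 0.1, adjusted p = 1.6e-06). The defining microglial genes Cx3cr1 and P2ry12 were within 2-fold at low levels, 5.99, 6.34 and 6.43 in day 6 cells, against 6.16 and 6.24 in NSCs for Cx3cr1 and 5.17, 5.21 and 5.24 in day 6 cells, against 5.11 and 5.4 in NSCs for P2ry12. Among 12 genes of the interferon response and antigen presentation none was called by limma (3 had an unadjusted p under 0.05). Within 2-fold were 11, 10 of them not active in NSCs. The active one was B2m, at 10.15, 9.84 and 10.0 in day 6 cells, against 10.41 and 9.18 in NSCs.

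Of 6 genes of red cells and platelets Hbb-y, and of 7 of the choroid plexus Ttr, was lower in day 6 cells, and Hbb-y was the only one of the 13 to average 7.67 or more in either group. The embryonic globin gene Hbb-y had 6.22, 5.74 and 5.97 in day 6 cells, against 10.68 and 8.13 in NSCs (-3.42 ± 0.51, adjusted p = 0.00026), and its difference was -2.15 without NSC replicate 1. The summed red cell and platelet list was 8.41 to 8.48 in day 6 cells and 9.12 to 10.98 in NSCs. Transthyretin (Ttr), of the choroid plexus, had 5.08, 5.2 and 5.32 in day 6 cells, against 8.06 and 5.78 in NSCs (-1.72 ± 0.45, adjusted p = 0.0108), and its difference was -0.58 without NSC replicate 1 and -2.86 without replicate 2. Fitted with the 2 groups alone, Ttr had a limma adjusted p of 0.0562 and was not called. The summed choroid plexus list was 8.67 to 8.88 in day 6 cells and 8.67 to 9.27 in NSCs. Both genes were higher in NSC replicate 1 than in replicate 2, and their part in other differences was not tested.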

How the data were processed

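Total RNA was prepared with the GeneChip WT PLUS kit and hybridised to Affymetrix Mouse Gene 1.0 ST arrays, per the labels. The deposited values are linear intensity values per probe set made by RMA (robust multi-array averaging) according to the notes on processing by the submitters, with its version not given in the sources used here. Log2 values were planned for, but the authors' values are linear (20.2 to 15436, array medians 97.9 to 104.9), so log2 was taken first. If a constant was added before deposit, log2 differences of dim genes are too small.

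Of 28853 probe sets, 21789 carry 1 gene symbol in GEO's platform annotation, 1621 several and 5443 no symbol. Where any of the 19938 genes had more than 1 single-symbol probe set, the brightest on average was used. The limma 3.58.1 fit in R 4.3.3 had 1 mean per group over all 12 arrays and 10.9 degrees of freedom with the prior. It was tested on simulated data. Of 554 listed genes 524 were matched, and the other 30 were not analysed here. Counting and plotting used matplotlib 3.10.9, numpy 2.4.6 and pandas 2.3.3 under Python 3.11.15. Array number limits the precision.

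The groups compared, the gene lists and the rule for named genes were chosen with earlier results of these data known. The rule takes the 12 highest and 12 lowest called genes whose arrays do not overlap, up to 5 called and 4 shared members of each list, Sox1 and the delivered factors, called markers of other cells, and 12 genes of each shared set. Other genes, among them Nes, Nanog, Cdh1, Cdh2, Gfap, Aqp4, Ccnd1, Jag2, Ebp, Hes1, Hes5, Hey1, Nfix, Zbtb20, Sox11, Stmn2, Nefm, Syt1, L1cam, Ncam1, Tubb3, Gja1, Meis2, Pou3f3, Pou3f4, Sall3, Dppa5a, Mvk, Pmvk, Mvd, Fdps, Sqle, Cyp51, Msmo1, Tm7sf2, Sc5d, Hes6, Gad2, Gap43, Cx3cr1 and P2ry12, were named after their values were seen.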

Additional observations from a re-analysis of the deposited data

How the results depend on the processing

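The counts of 586 higher, 1185 lower and 17244 shared genes stayed within 1.5 times under most alternatives. Without a fold limit 3992 genes were higher and 3663 lower. Leaving out dim genes left 9992 shared genes, of 12592 tested. Leaving out each array in turn gave 553 to 606 higher, 1083 to 1298 lower and 16795 to 17113 shared genes. Cyclic loess gave 546 higher and centring arrays on the median 1130 lower genes, with median differences over all genes of 0.004 and 0.105. Subtracting 16 before log2 gave 694 higher and 1333 lower genes. All probe sets in place of 1 a gene, an alternative chosen after seeing the data, gave 693 higher, 1564 lower and 25275 shared of 28853. The replicate number as a block gave 615 higher, 1182 lower and 17232 shared genes. The labels do not say that numbers are shared between groups, so the numbers were not taken to pair samples. Deviations from the group means correlated at 0.1 for replicates 1 and 0.165 for replicates 2 across genes. The deviations of 2 NSC arrays mirror each other, so these values cannot show whether samples pair. Of 237 named genes compared in 3316 combinations of gene and setting, 15 combinations lost their call and none reversed. They concern 10 of the 135 named genes called. Of 101 named genes within 2-fold, 79 were so in every setting. Differences of dim genes are limited by the array background.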
